A study of Mus musculus with 18 samples.

Results

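The interaction between the response to isoproterenol (ISO), a β-adrenergic receptor agonist, and re-expression of ABHD5 was examined in cultured mouse brown adipocytes. For each gene the ISO response, that is ISO over its vehicle DMSO, was taken in cells with and without doxycycline (Dox), and the difference of the 2 responses was tested. The 12 ISO and DMSO libraries of the 18 in the experiment entered this test. The cells were an immortalized brown adipocyte line in which every group carried a stable lentiviral shRNA against Abhd5 together with an inducible, shRNA-resistant, mCherry-tagged ABHD5. Without Dox the cells were in the knockdown state. With Dox, given at 1 µg/ml for 24 to 48 h by the labels, ABHD5 was re-expressed. The study's figure legend for this experiment gives 24 h. Cells of both states received DMSO or ISO (10 nM by the labels) for 3 h, with 3 libraries in each of the 4 groups. Cells with Dox carry the genotype label WT and those without it the label ABHD5 KD. This was 1 line, and no cells that received Dox without the inducible construct were part of the experiment, so that effects of Dox and of ABHD5 cannot be told apart.

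In brown adipocytes, β-adrenergic signals raise cAMP and activate protein kinase A, which drives transcription through CREB-family factors and also starts lipolysis. Phosphorylation of perilipins releases ABHD5, which binds and activates the triglyceride lipase ATGL, and the fatty acids that are set free serve as fuel and as ligands of the PPAR nuclear receptors. ABHD5 acts in the lipolytic arm, and the comparison asks which parts of the agonist response differ between cells with little and with restored ABHD5.

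The 12 libraries held between 689910 and 1956565 counts each. The median gene had 8 to 25 counts, so that differences of weakly counted genes were measured with little precision. Levels are given as CPM, the counts scaled to a common library size, on composition-corrected library sizes, as mean ± SD over n = 3 libraries. Responses and differences are log2 values ± SE from edgeR's quasi-likelihood fit, with Benjamini-Hochberg adjusted p over 9909 genes tested, and 7763 genes were left out by a filter on low counts. A gene was called when the adjusted p of its difference was 0.05 or less and the difference was at least 1 in size.

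Abhd5 itself followed the labels. Its level was 53.0 ± 5.13 CPM in DMSO without Dox, 151 ± 22.4 in ISO without Dox, 579.5 ± 86.1 in DMSO with Dox and 842 ± 22.1 in ISO with Dox. Dox raised it by 3.46 on the log2 scale in DMSO. The ISO response of Abhd5 was 1.51 ± 0.18 without Dox and 0.54 ± 0.14 with Dox, a difference of -0.97 ± 0.23 (edgeR adjusted p = 0.0214) that stayed just under the limit on size. Reads of the resident and of the introduced gene cannot be told apart in these counts.

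The level of the adipocyte markers was uneven between genes. The summed level of the 23 adipocyte markers in the table ran from 7700 to 9750 CPM in DMSO without Dox, from 15800 to 18000 in ISO without Dox, from 8510 to 10100 in DMSO with Dox and from 22500 to 24000 in ISO with Dox. Scd1, a fatty acid desaturase, had the most counts of the list in each library without Dox and in DMSO with Dox. In ISO with Dox, Plin4 had 8003, 8674 and 6375 counts and Scd1 6438, 8971 and 5945. Pck1 had 3 or 4 counts in each DMSO library without Dox and Lep was at 0 counts in ISO with Dox. Of the 22 adipocyte markers tested, 5 were called, all higher (22.7% against 0.898% of all genes), namely Fabp4, Cidec, Aqp7, Acsl1 and Adig, the list's median difference was 0.67, and the part of this list in the results was not tested. The 15 brown adipocyte markers summed to 430 to 618 CPM in DMSO and 826 to 1080 CPM in ISO without Dox, and to 510 to 655 CPM in DMSO and 1180 to 2120 CPM in ISO with Dox, and Lhx8 and Dio2 were at 0 counts in every library. Macrophage markers summed to at most 49.1 CPM, endothelial markers to at most 57.2 CPM and myogenic markers to at most 39.9 CPM in any library. C1qa, C1qb, C1qc and Tyrobp, and Myod1 and Myog, were at 0 counts in all 12 libraries. In the lists for preadipocytes or fibroblasts, proliferation, macrophages, endothelium and muscle 0 of 11, 26, 2, 3 and 1 members tested were called by edgeR, DESeq2 or limma-voom, with 2, 1, 0, 0 and 0 at an unadjusted p under 0.05. Preadipocyte and fibroblast markers summed to 1790 to 2010 CPM in DMSO and 1600 to 1960 CPM in ISO without Dox, and to 1860 to 2290 CPM in DMSO and 1500 to 1830 CPM in ISO with Dox. Proliferation markers summed to 2680 to 2910 CPM in DMSO and 2300 to 2500 CPM in ISO without Dox, and to 2600 to 2680 CPM in DMSO and 2260 to 2320 CPM in ISO with Dox.

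The agonist response was higher with Dox for 89 genes, 0.898% of those tested, and lower with Dox for 35 genes, 0.353%. These counts come from a fit that did not use the replicate numbers. With the replicate number added to the fit as a block, 147 genes were higher and 103 lower. The share higher was then 58.8% against 71.8%, so that both counts and their split depended on this choice. The numbers are not stated to mark a shared experiment, and the shares of gene lists given here are without the block. At an unadjusted p under 0.05 the difference counted 1390 genes. The 89 genes had a median ISO response of -0.27 without Dox and 1.05 with Dox, and the 35 genes one of 1.06 without Dox and -0.55 with Dox, while the median difference over all genes tested was 0.00. With the limit on size dropped, 151 genes were higher and 45 lower. The last gene inside the threshold was Atpaf2, with a difference of 1.04 and an adjusted p of 0.0491, and the first outside it was Swt1, with a difference of 1.29 and an adjusted p of 0.051. In the plot of both responses the called genes lie in bands above and below the line of equal response.

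**Figure D1:**
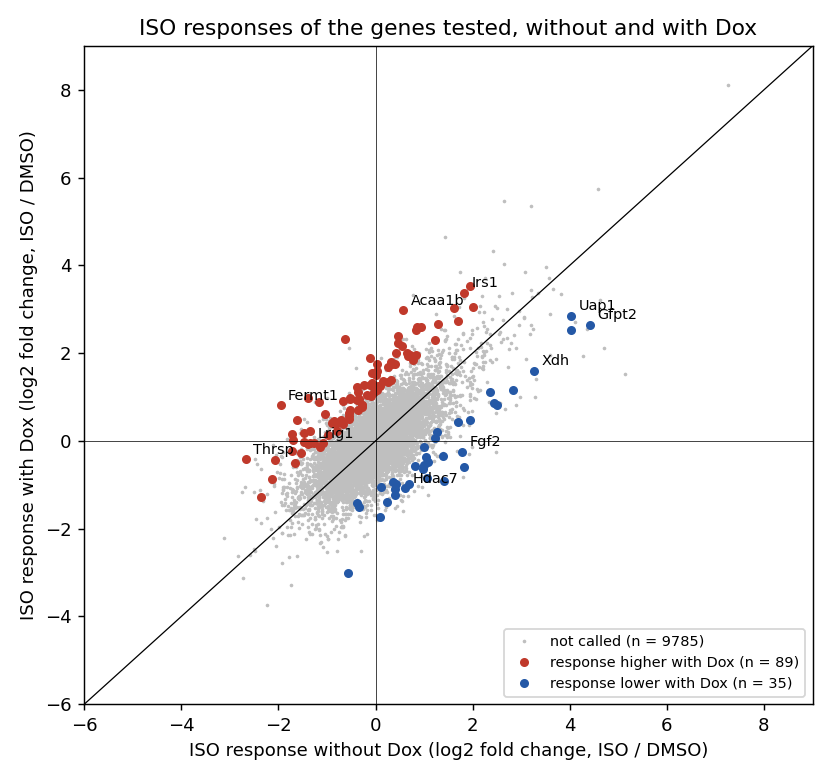
ISO responses (log2 fold change, ISO over DMSO) of the genes tested, without Dox on the x axis and with Dox on the y axis, where each point is a gene and the diagonal marks an equal response. The 89 genes with a higher response with Dox (red) lie above the diagonal and the 35 with a lower response (blue) below it.

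The called genes were sorted by whether their ISO response passed an adjusted p of 0.05 in each state. Among the 89 genes higher with Dox, 39 responded to ISO only with Dox, 15 responded in both states and more strongly with Dox, 12 responded in opposite directions, 21 fell with ISO without Dox and did not pass the test with Dox, and 2 fell in both states but less with Dox. Among the 35 genes lower with Dox, 12 rose with ISO without Dox and did not pass with Dox, 8 rose in both states but less with Dox, 4 responded in opposite directions and 11 responded only with Dox. These names describe which side of a threshold each response was on, and a response that missed it is not shown to be absent.

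The Dox effect on these genes was small in unstimulated cells. None of the 124 called genes passed an adjusted p of 0.05 for it in DMSO by edgeR, DESeq2 or limma-voom, where 1.23% of all genes did by edgeR, and 22 had an unadjusted p under 0.05. The smallest adjusted p among them was 0.114. All 124 passed it in ISO, where 12.2% of all genes did. The median size of the Dox effect on the called genes was 0.23 in DMSO and 1.32 in ISO. These contrasts use the same libraries as the difference that chose the genes, and are given as description.

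Of the 16 genes whose response reversed, 12 went from a fall to a rise. Dhrs3 encodes a retinaldehyde reductase (chr4:144482730-144517548, mm9, forward strand). Its 3 libraries read 73.8, 58.0 and 59.3 CPM in DMSO and 32.8, 26.1 and 27.9 in ISO without Dox, and 82.2, 66.1 and 74.9 in DMSO and 143, 134 and 142 in ISO with Dox. The 4 groups overlapped only between both DMSO groups, and ISO libraries lay below DMSO without Dox and above it with Dox. The response was -1.16 ± 0.19 without and 0.89 ± 0.15 with Dox, and the difference 2.05 ± 0.24 (edgeR adjusted p = 2.24e-05).

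Acer2, an alkaline ceramidase (chr4:86520318-86578394, mm9, forward strand), read 64.0, 49.7 and 46.0 CPM in DMSO and 13.1, 24.1 and 23.4 in ISO without Dox. With Dox it read 73.4, 55.6 and 49.9 in DMSO and 157, 102 and 102 in ISO. Its responses were -1.38 ± 0.26 and 0.97 ± 0.20, with a difference of 2.35 ± 0.33 (edgeR adjusted p = 0.000124). Within each state ISO and DMSO libraries did not overlap.

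Cidec, a lipid droplet protein that promotes droplet fusion (chr6:113374628-113385754, mm9, reverse strand), read 309, 435 and 310 CPM in DMSO and 192, 285 and 254 in ISO without Dox, and 428, 435 and 351 in DMSO and 768, 821 and 750 in ISO with Dox. The level with ISO and Dox was above every other library, while both groups without Dox lay close together without overlapping. The difference was 1.46 ± 0.23 (edgeR adjusted p = 0.000433). Aqp7, the channel through which adipocytes release glycerol (chr4:40980107-40995169, mm9, reverse strand), read 127, 95.3 and 138 CPM in DMSO and 60.1, 57.2 and 81.4 in ISO without Dox. With Dox it read 163, 129 and 169 in DMSO and 229, 158 and 246 in ISO, where 1 ISO library fell among the DMSO ones. Its difference was 1.30 ± 0.26 (edgeR adjusted p = 0.00516).

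The same pattern held for Pex11a, a peroxisome division factor, with responses of -0.55 ± 0.17 and 0.64 ± 0.15, and for Adig, a protein of adipocyte differentiation, with a difference of 1.58. It also held for Fermt1, an integrin activator, with responses of -1.96 ± 0.37 and 0.81 ± 0.27, for Gramd1b, a sterol transporter between membranes (-1.04 and 0.61), and for Sepp1, the plasma selenium carrier (-0.71 and 0.47). Bri3, Bckdhb and Atpaf2 were the other 3. Atpaf2, an assembly factor of ATP synthase, stood at the threshold and kept its call in 3 of 12 fits that left out 1 library. Bckdhb, a subunit of branched-chain keto acid dehydrogenase, fell under the limit on size when ISO without Dox replicate 1 (0.93), or with Dox DMSO replicate 1 (0.90) or ISO replicate 3 (0.99), was left out. Bri3 did so when, with Dox, DMSO replicate 3 (0.998) or ISO replicate 1 (0.97) was left out.

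The other 4 genes reversed from a rise to a fall, and all 4 kept their call when any library was left out. Acsl5, which activates long-chain fatty acids to acyl-CoA, read 63.1, 51.1 and 64.4 CPM in DMSO and 120, 98.4 and 98.0 in ISO without Dox, against 88.0, 95.4 and 80.6 in DMSO and 54.9, 57.2 and 64.8 in ISO with Dox. Its ISO and DMSO libraries did not overlap in either state, and the difference was -1.39 ± 0.23 (edgeR adjusted p = 0.000887). Hdac7, a class IIa histone deacetylase, had responses of 0.61 ± 0.20 and -1.07 ± 0.21. Furin, the proprotein convertase, had responses of 0.99 ± 0.23 and -0.65 ± 0.24. Acsl5 and Hdac7 overlap other genes on the opposite strand, from which reads cannot be told apart because the counting is not stated to use strand.

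**Figure D2:**
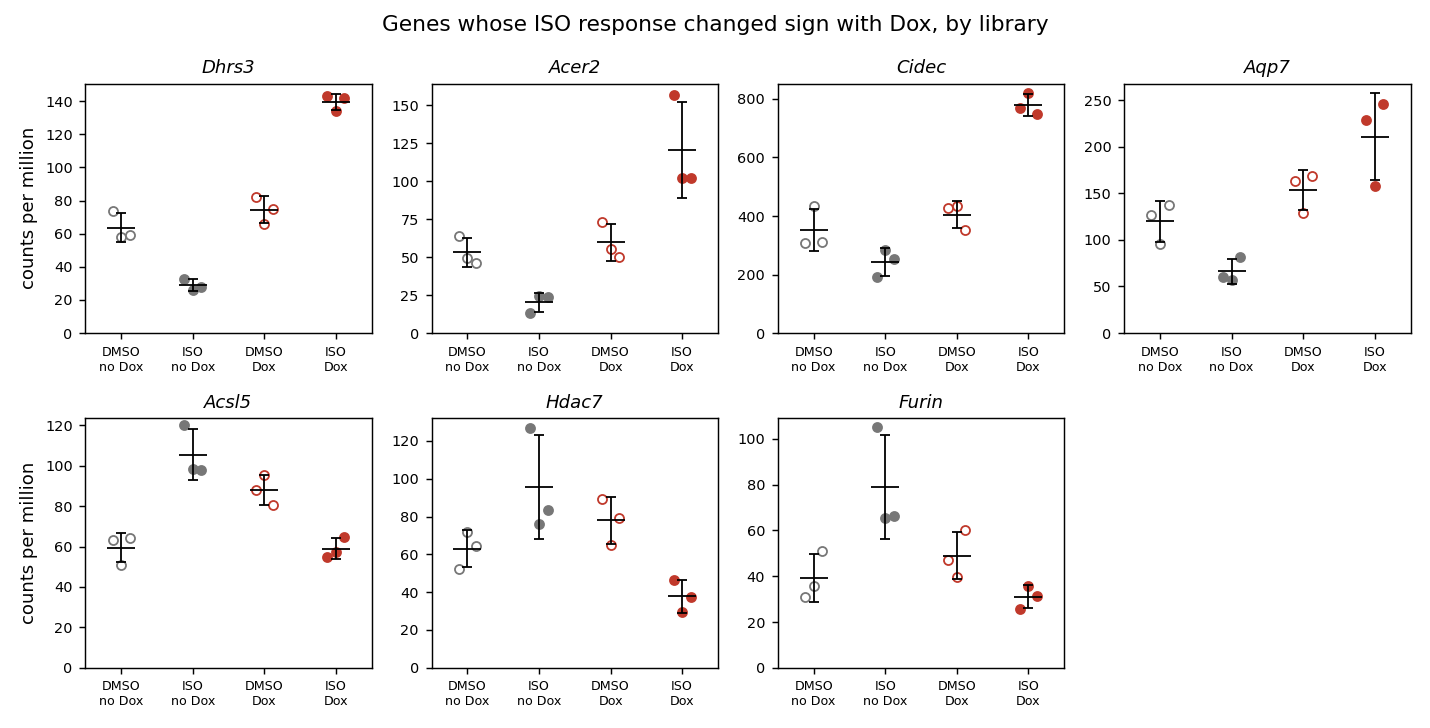
Levels in CPM (y axis, from 0) of 7 genes with opposite ISO responses in the 4 groups (x axis), where each point is a library, open for DMSO and filled for ISO, grey without and red with Dox, and lines give the mean ± SD (n = 3). The mean of ISO lies below that of DMSO without Dox and above it with Dox in the upper row. The order is the reverse in the lower row. With Dox the ISO and DMSO libraries of Aqp7 overlap.

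PPAR targets encode proteins of fatty acid uptake, storage and oxidation. Of 40 PPAR targets tested, 9 were called higher and none lower, which is 22.5% against 0.898% of all genes, and the median difference of the list was 0.86 against 0.00 over all genes. Its median ISO response was 0.35 without Dox and 0.96 with Dox, and 8 members rose with ISO without Dox and 19 with Dox at a log2 change of at least 1. The called members were Pdk4, Acaa1b, Fabp4, Acsl1, Pex11a, Cidec, Aqp7, Tmem120a and Mgll. The response of Pdk4, Acaa1b, Fabp4 and Mgll passed the test only with Dox, that of Acsl1 and Tmem120a was enlarged, and that of Pex11a, Cidec and Aqp7 reversed. The called share was close to the 22.7% of the adipocyte markers, with which the list shares the called genes Fabp4, Cidec, Aqp7 and Acsl1. A further 4 members passed the adjusted p with a difference below the limit, among them Acadl (0.97) and Acadm (0.88), both mitochondrial acyl-CoA dehydrogenases, and Adipoq (0.86, the hormone adiponectin).

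Acaa1b, a peroxisomal thiolase of β-oxidation (chr9:119057161-119066211, mm9, reverse strand), read 203, 217 and 249 CPM in DMSO and 380, 321 and 296 in ISO without Dox, and 398, 196 and 199 in DMSO and 2710, 1900 and 1780 in ISO with Dox. All 3 ISO libraries with Dox lay far above the other 9, among which 1 DMSO library with Dox reached the level of ISO without Dox. The response was 0.57 ± 0.22 without Dox, which did not pass the test, and 2.98 ± 0.22 with Dox, with a difference of 2.41 ± 0.31 (edgeR adjusted p = 3.95e-05). The gene Dlec1 overlaps it on the opposite strand.

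Pdk4 restrains glucose oxidation by phosphorylating pyruvate dehydrogenase (chr6:5433351-5446278, mm9, reverse strand). It read 104, 52.5 and 95.1 CPM in DMSO and 107, 80.3 and 161 in ISO without Dox, and 198, 94.4 and 145 in DMSO and 827, 537 and 740 in ISO with Dox. Its 2 groups without Dox overlapped and its ISO libraries with Dox stood apart, with a difference of 1.77 ± 0.35 (edgeR adjusted p = 0.00459). Fabp4, the adipocyte fatty acid binding protein, read 21.3, 18 and 19.4 CPM in DMSO and 28.4, 21.1 and 31.7 in ISO without Dox, and 31.6, 24.1 and 10.2 in DMSO and 113, 137 and 130 in ISO with Dox. These counts come from 73 counted bases of the gene and are not a measure of its full transcript. For other genes too, the share of exon and intron reads in a value is unknown. The ISO libraries with Dox again stood apart from the other 9, with a difference of 1.94 ± 0.38 (edgeR adjusted p = 0.00459).

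Acsl1, the main acyl-CoA synthetase of adipocytes, responded in both states, at 0.94 ± 0.17 without Dox and 2.58 ± 0.17 with Dox (difference 1.64 ± 0.24, edgeR adjusted p = 0.000228). Its relative Acsl5 also rose with ISO without Dox and fell with Dox. Tmem120a, a membrane protein of adipocytes, went from 94.9 to 127 CPM without Dox and from 138 to 553 CPM with Dox. Mgll, which hydrolyzes monoglycerides in the last step of lipolysis, had responses of -0.01 ± 0.20 and 1.21 ± 0.18, and its call was lost without DMSO without Dox replicate 3 (difference 1.16) or ISO with Dox replicate 1 (0.98).

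**Figure D3:**
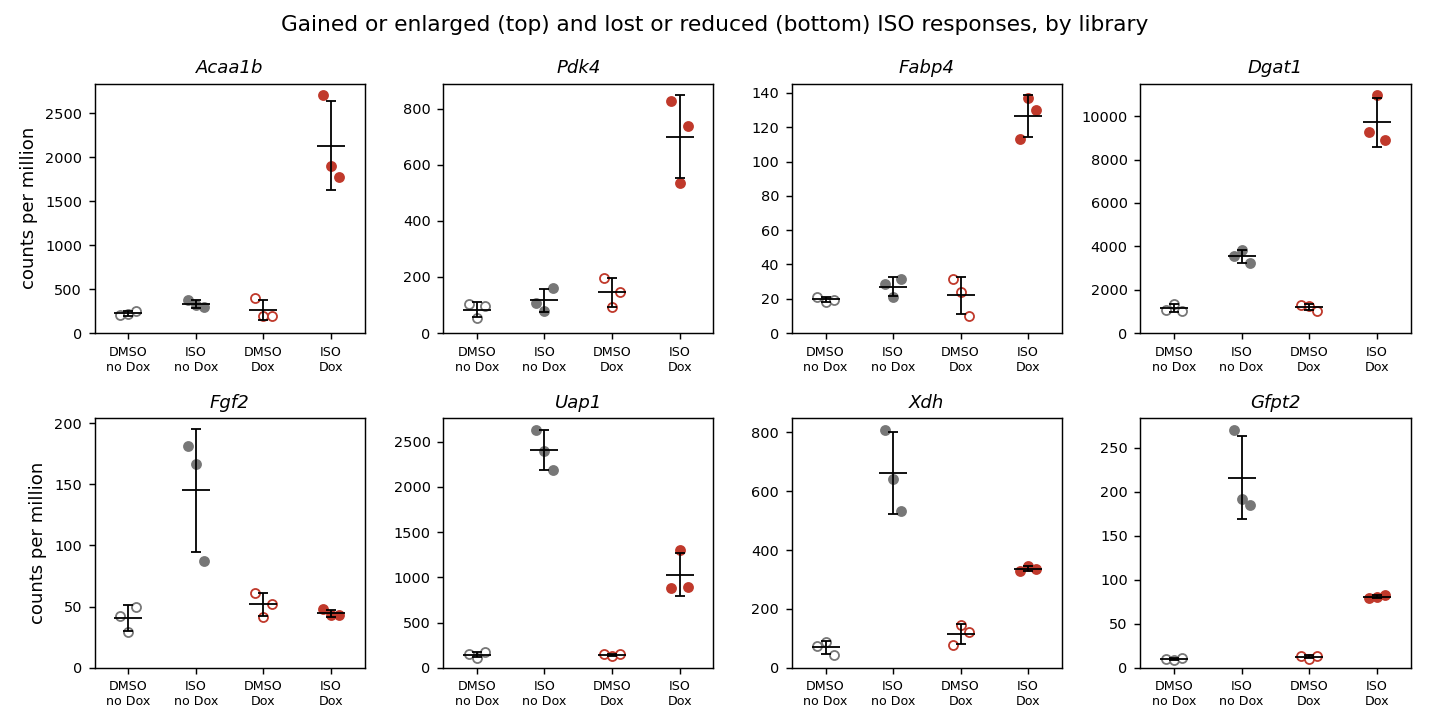
Levels in CPM (y axis, from 0) of 8 genes in the 4 groups (x axis), with points for libraries and lines for the mean ± SD (n = 3) as above. In the upper row ISO with Dox lies above every other library, and in the lower row ISO without Dox lies above ISO with Dox.

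Of 21 genes of triglyceride synthesis and glyceroneogenesis tested, 3 were called higher and none lower, which is 14.3% against 0.898% of all genes, with a median difference of 0.50. The called members were Dgat1, Agpat9 and Aqp7, of which Aqp7 is also in the list of PPAR targets. Dgat1, which adds the last acyl chain of triglyceride (chr15:76332445-76342248, mm9, reverse strand), read 1080, 1340 and 1020 CPM in DMSO and 3570, 3830 and 3230 in ISO without Dox, and 1270, 1260 and 1030 in DMSO and 9250, 11000 and 8910 in ISO with Dox. Its ISO response thus went from 1.63 ± 0.20 to 3.04 ± 0.21, a difference of 1.41 ± 0.28 (edgeR adjusted p = 0.00459). Agpat9, a glycerol-3-phosphate acyltransferase, had responses of 0.85 ± 0.24 and 2.59 ± 0.19.

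Of 24 genes of lipolysis and the lipid droplet, 4 were called higher and none lower (16.7%, against 0.898% of all genes), all 4 also in the list of PPAR targets, with a median difference of 0.62. Of 34 peroxisomal genes, 2 were called higher (5.88%), namely Acaa1b and Pex11a, with a median difference of 0.38. None of 27 genes of mitochondrial fatty acid oxidation was called by edgeR, DESeq2 or limma-voom, with 8 at an unadjusted p under 0.05. Their median difference was 0.26, and 3 passed the adjusted p below the limit, namely Acadl, Acadm and Crat, which shuttles acetyl groups as acetylcarnitine. None of 77 nuclear genes of oxidative phosphorylation was called by the same tools, with 7 at an unadjusted p under 0.05 and a median difference of 0.08.

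Irs1, the insulin receptor substrate (chr1:82229680-82288014, mm9, reverse strand), read 29.3, 48.4 and 40.9 CPM in DMSO and 170, 110 and 133 in ISO without Dox, and 28.7, 51.4 and 29.5 in DMSO and 339, 358 and 410 in ISO with Dox. ISO libraries lay above DMSO in both states and higher with Dox, with a difference of 1.55 ± 0.30 (edgeR adjusted p = 0.00473). Of 38 genes of insulin and FOXO signaling tested, 2 were called higher and none lower, which is 5.26% against 0.898% of all genes, with a median difference of 0.20. Pfkfb3, which makes the activator of phosphofructokinase, had responses of 0.25 ± 0.17 and 1.67 ± 0.17. Of 47 genes of glucose, glycolysis and glycogen, 2 were called higher (4.26%), namely Pfkfb3 and Pdk4, which is also a PPAR target, and Gfpt2 was called lower (2.13%), with a median difference of 0.24.

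4931406C07Rik had the smallest p and the largest difference among the genes called higher. It read 62.2, 49.7 and 64.4 CPM in DMSO and 31.7, 45.2 and 37.7 in ISO without Dox, and 94.4, 76.5 and 54.5 in DMSO and 510, 314 and 338 in ISO with Dox, a difference of 2.95 ± 0.31 (edgeR adjusted p = 2.58e-06). Taf1d overlaps it on the opposite strand. Prkar2b, the regulatory subunit RIIβ of protein kinase A (chr12:32643344-32746144, mm9, reverse strand), had means of 189 and 192 CPM in DMSO and ISO without Dox and of 209 and 711 CPM with Dox, so that its response was 0.03 ± 0.15 in the knockdown state and 1.76 ± 0.15 with Dox. Picalm, an adaptor of clathrin-mediated endocytosis, had responses of -0.08 ± 0.16 and 1.56 ± 0.15, and Slco1a1, an organic anion transporter, of -0.11 ± 0.20 and 1.90 ± 0.18. Nrg4, a growth factor secreted by brown fat, had responses of 0.54 ± 0.23 and 2.16 ± 0.19.

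In a further group the fall with ISO passed the test only without Dox. Lrig1, which restrains growth factor receptors (chr6:94554523-94650139, mm9, reverse strand), read 356, 381 and 324 CPM in DMSO and 144, 141 and 133 in ISO without Dox, and 328, 320 and 338 in DMSO and 344, 304 and 306 in ISO with Dox. ISO without Dox stood below the other 9 libraries, which overlapped. The response was -1.34 ± 0.14 without Dox and -0.05 ± 0.13 with Dox (difference 1.30 ± 0.19, edgeR adjusted p = 0.000202). Fam214a, 6430573F11Rik, Lama4 (a laminin chain) and Dync2h1 (a ciliary dynein chain) had differences of 1.64, 2.09, 1.22 and 1.88. Nr1h3, the oxysterol receptor LXRα, had responses of -1.14 ± 0.15 and -0.13 ± 0.14, and its difference of 1.01 ranged from 0.88 to 1.14 with 1 library left out, where its call was lost in 5 of 12 fits. Thrsp, a lipogenic regulator at 20.5 CPM in DMSO and 3.13 CPM in ISO without Dox, kept its call in 3 of 12.

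Among the genes with a lower response with Dox, several rose with ISO without Dox and rose less, or did not pass the test, with Dox. Fgf2, a fibroblast growth factor (chr3:37247575-37303752, mm9, forward strand), read 42.7, 29.0 and 50.1 CPM in DMSO and 181, 167 and 87.5 in ISO without Dox, and 61.3, 41.9 and 52.2 in DMSO and 48.1, 42.9 and 43.2 in ISO with Dox. Its ISO libraries without Dox were above the other 9, and with Dox ISO lay among DMSO. The response was 1.79 ± 0.23 without and -0.25 ± 0.24 with Dox, a difference of -2.03 ± 0.34 (edgeR adjusted p = 0.000887). Runx1, a transcription factor, had responses of 1.71 ± 0.18 and 0.42 ± 0.20.

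Xdh, xanthine dehydrogenase (chr17:74233235-74299536, mm9, reverse strand), read 75.6, 87.1 and 44.0 CPM in DMSO and 809, 641 and 532 in ISO without Dox, and 77.8, 145 and 120 in DMSO and 329, 347 and 335 in ISO with Dox. ISO raised it in both states and less with Dox, with a difference of -1.68 ± 0.29 (edgeR adjusted p = 0.00165). Camkk2, a kinase upstream of AMPK, had responses of 2.49 ± 0.22 and 0.81 ± 0.21, and Cyp2ab1 of 2.83 ± 0.20 and 1.16 ± 0.21.

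Uap1 and Gfpt2 make UDP-N-acetylglucosamine, the donor of protein glycosylation, and were looked at together with the rest of that pathway after their values were seen. Uap1 (chr1:172072134-172105077, mm9, reverse strand) read 153, 112 and 174 CPM in DMSO and 2630, 2390 and 2190 in ISO without Dox, and 151, 125 and 149 in DMSO and 884, 1300 and 894 in ISO with Dox. Gfpt2 read 9.78, 8.29 and 11.2 CPM in DMSO and 270, 192 and 185 in ISO without Dox, and 13.6, 10.5 and 13.6 in DMSO and 79.0, 80.2 and 82.5 in ISO with Dox. In both genes every ISO library with Dox was below every ISO library without Dox and above the DMSO libraries. Their differences were -1.18 ± 0.26 and -1.78 ± 0.36 (edgeR adjusted p = 0.0127 and 0.00552). They were the 2 called lower among 9 hexosamine genes tested, where 0.353% of all genes were called lower, and the median difference of the 9 was 0.14. The call of Gfpt2 was lost without DMSO with Dox replicate 1, where the difference was -1.69.

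Genes of lipogenesis and sterol metabolism had the lowest median difference among the gene lists. Of 45 members tested, 5 were called lower and 2 higher, which is 11.1% against 0.353% of all genes for the lower direction, and the median difference was -0.55, from a median response of 0.41 without Dox to -0.28 with Dox. The genes called lower included Mvk, Pmvk and Hsd17b7, and the 2 called higher were Thrsp and Nr1h3. Among the 21 members of cholesterol metabolism, a part of the list taken out after its values were seen, the difference was negative in 20, with a median of -0.99.

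Mvk and Pmvk, kinases of the mevalonate pathway, had responses of 0.41 ± 0.25 and -1.10 ± 0.29, and of 1.22 ± 0.20 and 0.07 ± 0.20. The fall of Mvk with ISO passed the test only with Dox, and the rise of Pmvk only without Dox. Their differences were -1.51 ± 0.38 and -1.15 ± 0.28 (edgeR adjusted p = 0.0332 and 0.0306). Hsd17b7, a later enzyme of cholesterol synthesis, rose in both states and less with Dox, with a difference of -1.25 ± 0.33 (edgeR adjusted p = 0.0408). With single libraries left out, the calls held in 5 of 12 fits for Mvk, 5 for Pmvk and 4 for Hsd17b7, with all differences negative.

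No difference past the threshold was detected for the early cAMP genes. By edgeR, DESeq2 and limma-voom, all without the replicate numbers, none of the 25 tested was called in either direction. An unadjusted p under 0.05 was found for 4. The median response of the 25 was 1.27 without Dox and 1.24 with Dox. The members with the smallest p were Ppargc1a, the thermogenic coactivator, with responses of 2.20 ± 0.26 and 3.30 ± 0.24 (edgeR adjusted p of the difference 0.119), and Nfil3, a repressor induced by cAMP, with responses of 2.74 ± 0.17 and 2.09 ± 0.18. Of 40 genes of cAMP and protein kinase A signaling, Prkar2b was called higher and Crtc3, a CREB coactivator, lower (2.5% each, against 0.898% and 0.353% of all genes), and DESeq2 called 1 of the 40. Crtc3 had responses of 1.08 ± 0.25 and -0.47 ± 0.25, and its call was lost without ISO without Dox replicate 3, where the difference was -1.46. None of 15 phosphodiesterases was called by edgeR or DESeq2 and 1 by limma-voom, with 2 at an unadjusted p under 0.05, and Pde3b, which lowers cAMP in response to insulin, had a difference of 0.98 ± 0.25 that passed the test (edgeR adjusted p = 0.033) and stayed just under the limit on size.

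Ucp1, the uncoupling protein that defines brown fat, was chosen after its values were seen. It had 0 or 1 count in every DMSO library, 94, 24 and 114 counts in ISO without Dox, and 347, 171 and 311 counts in ISO with Dox. The levels were 70.9 ± 41.4 CPM in ISO without Dox and 246 ± 95.7 CPM in ISO with Dox, which did not overlap. The Dox effect in ISO was 1.78 on the log2 scale (edgeR adjusted p = 5.33e-05), while the difference of responses (edgeR adjusted p = 0.951) could not be estimated with any precision from DMSO groups at this floor. Among 16 thermogenic genes tested, the lipid-sensing receptor Ffar4 was called higher (6.25%, against 0.898% of all genes) by edgeR and none by limma-voom, and its call was lost in 10 of 12 fits that left out a library, with differences between 1.37 and 1.97. Ppara and Cidea, a PPAR and a droplet protein of brown fat, had differences of 2.67 ± 0.73 and 1.43 ± 0.43 and missed the test (edgeR adjusted p = 0.0543 and 0.0808).

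Among the stress lists, established markers of the unfolded protein response, which the study listed for another experiment with other libraries, had the highest median difference. Of 17 tested, 2 were called higher and none lower, which is 11.8% against 0.898% of all genes. Derl1, a factor of ER-associated degradation, and Thbs1, thrombospondin 1, were the genes called, and all 17 differences were positive, with a median of 0.67. Derl1 had responses of -0.28 ± 0.17 and 0.76 ± 0.16 and Thbs1 of -1.39 ± 0.26 and -0.06 ± 0.20, so that Thbs1 fell with ISO without Dox and rose in neither state. Left-out libraries ended the call of Derl1 in 5 of 12 fits and that of Thbs1 in 7. A list of 38 ER folding genes had a median of -0.12, with Derl1 as its only call. None of 39 genes of the integrated stress response, of which Atf4 was not analysed here, 21 core clock genes, 48 interferon-stimulated genes, 24 of MAPK feedback, 36 of the SLC25 carriers, 71 of mitochondrial translation, 55 of autophagy and lysosome or 35 of glutathione and NADPH metabolism was called by edgeR, DESeq2 or limma-voom. Their median differences were 0.22, 0.02, -0.16, -0.01, 0.02, 0.06, 0.25 and -0.04, in that order, and 7, 6, 4, 6, 4, 6, 10 and 8 members had an unadjusted p under 0.05. Among 18 retinoid genes Dhrs3 and Dhrs9 were called higher (11.1%), while the median difference was -0.20 and 6 of the 18 were positive. Hdac7 was called lower among 23 histone deacetylase genes (4.35% against 0.353% of all genes), with a median of -0.13. Nr1h3 was called higher among 28 nuclear receptors (3.57%), with a median of -0.14. Among 26 secreted growth factors Nrg4 was called higher and Fgf2 lower (3.85% each), with a median of 0.16.

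**Figure D4:**
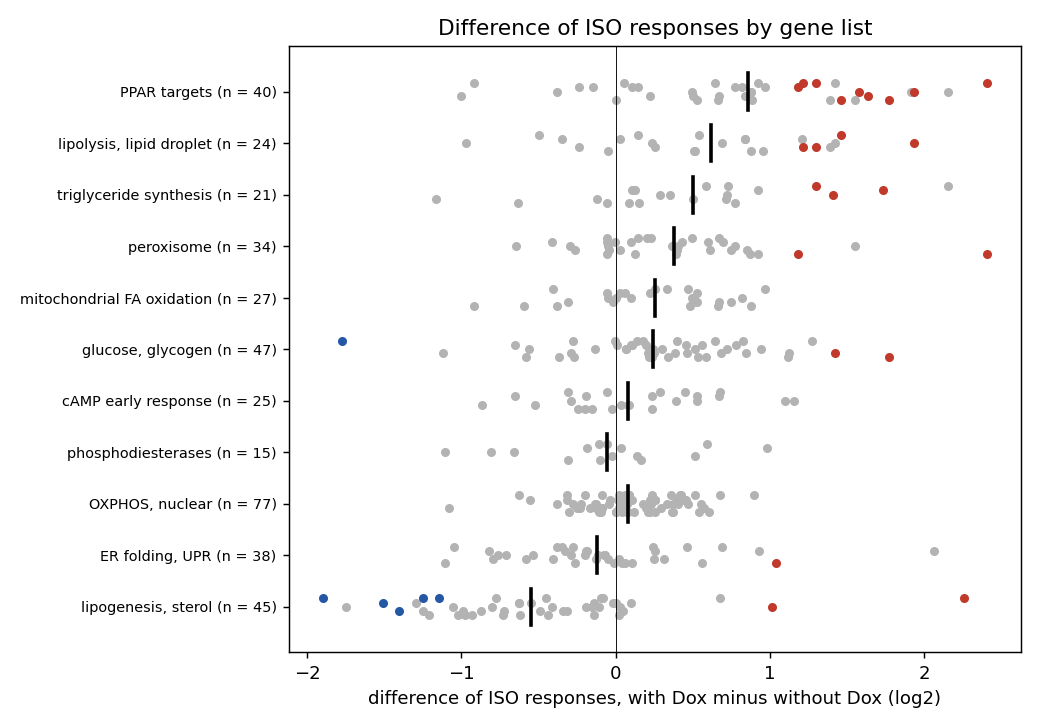
Difference of ISO responses (log2, with Dox minus without Dox, x axis) of the members of 11 gene lists (rows), where each point is a gene, red when called higher and blue when called lower, and the bar is the median. PPAR targets have the highest median of these lists, 0.86, and lipogenic and sterol genes the lowest, -0.55.

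ISO-induced genes had been grouped into clusters in another experiment of the study, with lipase inhibitors in place of the knockdown and with other libraries. That experiment also used a higher ISO dose, and cells without the Abhd5 shRNA and the inducible ABHD5. In the first, which held genes grouped as dependent on lipases, 10 of 84 tested genes were called higher and none lower, which is 11.9% against 0.898% of all genes called higher and 0.353% called lower, with a median difference of 0.62. In the second, which held genes grouped as induced further by the inhibitors, 4 of 71 were called higher and 4 lower (5.63% each), with a median of -0.08, and the lower ones were Gfpt2, Hsd17b7, Uap1 and Xdh. The remaining clusters of that experiment held 6 of 133 (4.51%) and 7 of 140 (5%) genes called higher and none lower, with medians of 0.46 and 0.18. Of the 4 clusters that the study formed on the present libraries, one had 36 of 123 genes called higher (29.3%), another 13 of 291 called higher (4.47%), another 6 of 281 called lower (2.14%) and the last 0 of 92 (8 at unadjusted p, and 0 by DESeq2 and limma-voom). These 4 are not independent evidence of a direction.

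The 6 libraries with SR-3420 (20 µM for 3 h), a ligand that releases ABHD5 without the agonist, were not used in the test and give the Dox effect under another stimulus. Of the 89 genes higher with Dox under ISO, 15 were called higher with Dox under SR-3420 (16.9%, against 2.31% of all genes tested) and none lower. Their Dox effect under SR-3420 was positive for 83, with a median of 0.59, and over all genes the median was -0.01. Of the 35 genes lower with Dox under ISO, 5 were called lower (14.3%, against 0.999% of all genes) and none higher, with a median of -0.30 and 7 positive values. The 15 included Pdk4 (2.76), Tmem140 (2.46), 4931406C07Rik (2.41), Thbs1 (1.92), Dhrs9 (1.71), Agpat9 (1.27) and Fabp4 (1.21). The 5 included Bmf, Hsd17b7 and 1110008P14Rik, with values of -2.38, -1.14 and -1.07. Xdh, Uap1 and Gfpt2 had values of 0.52, 0.07 and 0.19. Without Dox, Uap1 read 141, 117 and 116 CPM and Gfpt2 11.4 to 12 CPM under SR-3420, near their levels in DMSO, so that these values do not bear on a loss of induction.

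**Figure D5:**
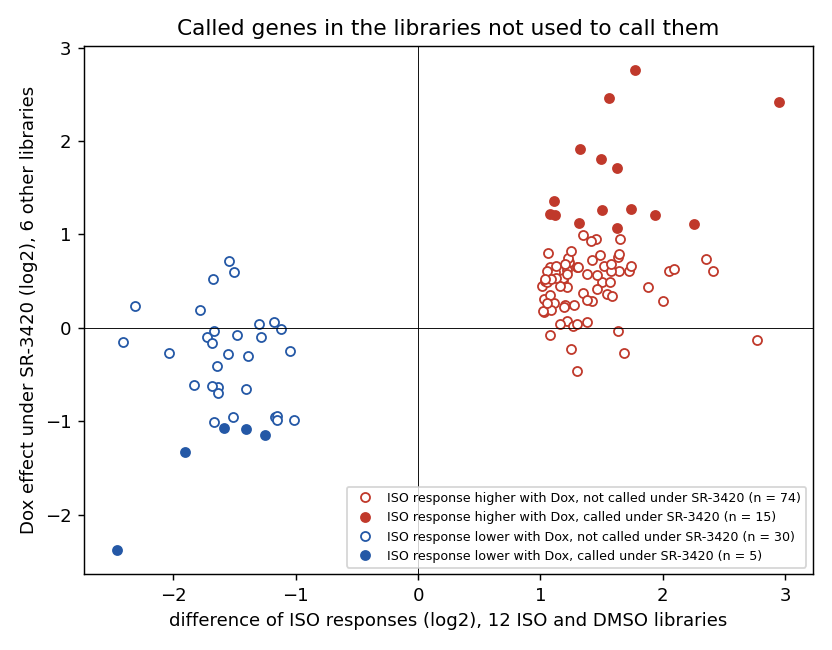
Dox effect under SR-3420 (log2, y axis, 6 libraries) against the difference of ISO responses (log2, x axis, 12 other libraries) for the 124 called genes, where filled points were also called under SR-3420. Of the 89 genes on the right, 83 lie above 0, and of the 35 on the left, 7 do.

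The promoters of the called genes were read from RefSeq on GRCm38.p6, over 250 bases before to 50 bases after each start, for 68 of the 89 and 26 of the 35 genes. The cAMP response element TGACGTCA, on either strand, was found in 1 of the 68 and 0 of the 26 genes, and in 3.68% of 7617 genes tested with a promoter. The half-site of nuclear receptors, AGGTCA, was found in 17.6%, 7.69% and 14.4%, and the E-box CACGTG in 23.5%, 19.2% and 12.1%. A match says only that these letters stand in the window. Among the 9 called PPAR targets, 8 had a promoter in the reference, and Aqp7 was the one with a half-site there, before both of its RefSeq starts. It is shown because Aqp7 is a PPAR target that reversed its response. The 200 bases upstream of its more distal start (chr4:41048137-41048336, GRCm38.p6, reverse strand) are given in lower case, with the half-site, here on the opposite strand, in capitals.
Aqp7: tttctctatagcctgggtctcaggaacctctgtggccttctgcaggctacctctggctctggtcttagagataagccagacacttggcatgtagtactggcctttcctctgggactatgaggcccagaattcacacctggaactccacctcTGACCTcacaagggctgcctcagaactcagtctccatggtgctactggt

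Of the 89 genes called higher, 50 kept their call when any of the 12 libraries was left out, and so did 12 of the 35 called lower. No call changed sign. Of the 124 genes, 39 overlap another gene in the annotation and their values are uncertain to that extent. Among those named above they include Irs1, Lrig1, Fgf2, Runx1, Fam214a, Gramd1b, Agpat9, Nrg4, Mgll, Crtc3, Ffar4 and 1110008P14Rik. Bmf, a pro-apoptotic BCL2 family member, had at most 3 counts in every ISO library with Dox, where its levels were 1.72, 2.38 and 0.982 CPM against 13.1, 15.1 and 14.3 CPM in ISO without Dox, and its call was lost in 10 of 12 fits that left out a library.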

How the data were processed

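RNA of an immortalized mouse brown adipocyte line was sequenced, and the 12 ISO and DMSO libraries, 3 in each of 4 groups taken from the sample titles, were compared. The authors aligned reads to mm9 with STAR 2.4.2a, used HOMER to keep one read per position and length, and obtained gene counts from iRNA-seq with its gene option. The deposited values are whole-number counts per gene, not normalized. Of 16542 genes matched to the mm9 annotation, 72.6% had a counted length close (within 10%) to their summed introns and 2.27% one close to their exons, and the share of exon and intron reads in a value is unknown. Library totals were 689910 to 1956565 counts.

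Genes passing filterByExpr on the 4 groups (9909 of 17672) were fitted with edgeR 4.0.16 (R 4.3.3) by glmQLFit, with TMM factors from 0.877 to 1.13 and 1 mean per group and no replicate block. The contrast was (ISO - DMSO with Dox) - (ISO - DMSO without Dox), two-sided. An SE is the size of the log2 value divided by the square root of F, and the common dispersion was 0.0176. Called genes passed an adjusted p of 0.05 and a size of 1. The Dox effect under SR-3420 was fitted alone on 6 libraries. The fit was tested on simulated data first. DESeq2 1.42.0, limma-voom (limma 3.58.1), other scalings, filters and left-out libraries were tried as alternatives. DESeq2 and limma-voom also used no replicate block, and calls within the gene lists were not counted with a block.

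Named genes are Abhd5, the 15 called genes of smallest p per direction, the largest differences of each response class, and the called members and up to 3 members of smallest p of each gene list. Other names were chosen after their values were seen. The comparison, members and lists were chosen with earlier results of these data known. No set test was run. Some single genes are not reported here, and remain in all counts. No pair of libraries was identical: counts of replicates differed by 2.35 to 9.59 times the sampling variance. Labels do not state that replicates came from separate cultures, although the study describes 3 independent experiments, and p-values measure the spread between these samples.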

Additional observations from a re-analysis of the deposited data

Results flagged for a closer look

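The interaction term, fitted without a replicate block, found genes whose response to ISO differed between cells with and without Dox. The response was higher with Dox for 89 genes and lower for 35. Among them 16 genes responded in opposite directions in both states, of which 15 are given. The difference of responses (log2, with Dox minus without) was 2.05 for Dhrs3, 2.35 for Acer2, 1.65 for Gramd1b, 1.46 for Cidec and 2.77 for Fermt1. It was 1.19 for Sepp1, 1.19 for Pex11a, 1.58 for Adig, 1.30 for Aqp7, 1.12 for Bri3, 1.06 for Bckdhb and 1.04 for Atpaf2. In the other direction it was -1.39 for Acsl5, -1.68 for Hdac7 and -1.63 for Furin. Groups of 3 libraries were too small for a test of single outlying samples.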

How the results depend on the processing

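The median difference over all genes stayed within 0.08 of 0 under every setting. RLE factors, library totals, limma-voom, thinned counts, at least 10 counts in every library and the fit of all 18 libraries left both counts of called genes within 1.5 times 89 and 35. Upper-quartile factors moved the split to 75 higher and 46 lower (62.0% higher against 71.8%), and kept 110 of the 124 calls. With 1 library left out, 63 to 148 genes were higher and 20 to 58 lower: 148 and 58 without ISO with Dox replicate 2, 23 lower without ISO with Dox replicate 1 and 20 lower without DMSO with Dox replicate 1. The ranges were 37 to 96 for responses gained or enlarged, 14 to 37 for falls lost or reduced, 14 to 30 for rises lost or reduced, 3 to 22 for falls gained, and 9 to 23 for reversed genes. Under SR-3420 they were 13 to 17 higher and 3 to 8 lower. No filter gave 74 genes lower, 44 rises lost or reduced and 22 falls gained. DESeq2 gave 23 lower (19 main calls had no adjusted p), 5 falls gained and 9 reversed. Falls gained numbered 5 with library totals, 7 with limma-voom and 7 with thinned counts. Library totals gave 11 lower under SR-3420. With no limit on size 151 were higher, 98 gained or enlarged and 38 falls lost or reduced. An adjusted p of 0.01 left 58 higher and 12 lower, 14 falls lost or reduced, 9 rises lost or reduced, 2 falls gained and 4 reversed. Beyond the settings' own construction the cause was not tested. With the replicate block 147 genes were higher and 103 lower, with 92 responses gained or enlarged, 36 falls lost or reduced, 56 rises lost or reduced and 40 falls gained, and 123 of 124 calls were kept, all but Nr1h3. Same-numbered libraries correlated at 0.07 to 0.26 after group means were removed, 15 of 18 pairs above 0.1, and 11 of 12 libraries correlated best with their own number in all other groups; the numbers are not stated to mark a shared experiment. The smallest library, with 689910 counts, limits weakly counted genes.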
